A study of Mus musculus with 6 samples.

Results

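The genes described here encode the proteins of the extracellular matrix and the integrins that bind it. They were taken from the deposited expression table by symbol: all collagen chains, laminin chains and numbered or αv integrin subunits, together with Fn1, Sparc, Sparcl1, Thbs1, Thbs2, Nid1, Nid2 and Hspg2, with Itgb2 left out. The rule matched 82 rows, of which 1, Itgb6, was blank in all libraries. The other 81 genes, of 20323 with a value in all 6 libraries, are the members. The rule uses symbols only, but it was set with earlier results of these data known. They comprise 44 collagen, 11 laminin and 18 integrin genes and the 8 genes named singly.

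RNA came from hippocampal cells sorted with magnetic beads for GFP, 1 mouse per library. All mice were labelled Nestin-CreERT2;Rosa26-mGFP, so that GFP marks cells in which the Nestin promoter had driven the recombinase, and their progeny. All had eaten cuprizone, a copper chelator that causes loss of myelin, for 10 weeks and had then recovered for 4 weeks. The 3 vehicle mice were given 0.1% bovine serum albumin in saline, and the 3 others neuregulin 1 beta 1 (Nrg-1β1), a ligand of ErbB receptors, at 60 µg/kg/day per the series description and at the same number of grams per the sample labels. No group without cuprizone was analysed here, and no age or sex is given in the labels.

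Matrix proteins fall into a few structural kinds. Collagens are trimers of chains that wind into a triple helix, which needs a glycine at the start of every residue triplet. Fibrillar collagens form cables, whereas collagen IV, laminins, nidogens and perlecan form the sheet-like basement membrane, which in the brain lies under the endothelium, around pericytes and at the astrocyte endfeet. Matricellular proteins such as SPARC and the thrombospondins change how cells use the matrix, and SPARC and its relative SPARC-like 1 (hevin), with the thrombospondins, are known as astrocyte signals that act on synapse formation. Integrins are receptors made of an α and a β subunit, and many of those with αv, or with α5 and β1, recognise the tripeptide Arg-Gly-Asp (RGD) in their ligands.

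Sequences are shown for the genes on which the comparison turns. In the coding sequence of Fn1, transcript Fn1-201 of GENCODE M21 (GRCm38), codons for Arg-Gly-Asp were found at 2 places, beginning at codons 1614 and 2181. The stretch around the first, the textbook cell attachment site of fibronectin, lies on chr1:71606719-71606781, minus strand, and the capitals mark the 3 codons.
Fn1: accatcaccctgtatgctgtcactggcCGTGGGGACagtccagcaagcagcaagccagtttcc
Col4a1 and Col4a2 encode the chains of the main collagen IV trimer and lie head to head, so that their first exons overlap by 22 bases in the RefSeq starts on GRCm38.p6. The 30 bases at chr8:11312801-11312830, plus strand, are shown with the overlap in capitals, and transcription of Col4a1 runs to the left and that of Col4a2 to the right.
Col4a1 and Col4a2: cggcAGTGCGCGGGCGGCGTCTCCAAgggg
For Col6a2, the collagen gene that passed the test, the 250 bases before the upstream of its RefSeq starts are at chr10:76623631-76623880, minus strand, GRCm38.p6. The capitals mark the single GC box (GGGCGG, searched on both strands and here read on the opposite one), and neither CCAAT nor TATAAA was present on either strand.
Col6a2: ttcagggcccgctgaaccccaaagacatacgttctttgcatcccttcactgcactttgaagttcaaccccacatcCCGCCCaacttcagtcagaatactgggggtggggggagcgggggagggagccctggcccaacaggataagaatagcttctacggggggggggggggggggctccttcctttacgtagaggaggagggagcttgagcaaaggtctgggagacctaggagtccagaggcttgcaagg
A GC box was held by 32.7% of the 32851 RefSeq promoter windows of this length, and by 32 of the 63 windows of the 58 members matched there. Since the sources used here do not give the build behind the deposited values, these positions describe the reference only.

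The reference coding sequences also show what the members share beyond their names. A run of at least 20 consecutive triplets with glycine first was found in 44 of 44 collagen genes, in 0 of the other 37 members and in 0.297% of 21584 coding genes. The runs ranged widely, from 23 triplets in Col26a1 through 87 in Col6a1 and Col6a2 to 344 in Col3a1. In-frame codons for RGD were found in 50 of the 81 members, against 7.25% of all coding genes. The members are long, with a median of 1372 codons against 396 over all coding genes, and the share was not adjusted for length.

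Depth limits what can be said of most members. Reads recovered from the deposited values numbered 72953034, 1075813 and 47076006 for vehicle libraries 1 to 3, and 567073, 662909 and 1327003 for Nrg-1β1. Counts of 10 or more were reached by 75, 24 and 75 members in the vehicle libraries but by only 14, 14 and 16 in the Nrg-1β1 libraries. Over the 3 Nrg-1β1 libraries together, 30 members had at least 10 reads and 5 had none. Y-linked and Xist reads differed between libraries as well: Ddx3y was counted 82, 1 and 1994 times under vehicle and 29, 22 and 15 times under Nrg-1β1 at its lower depth, while Xist was counted 3255, 216 and 1045 times against 2, 3 and 1. Vehicle library 3 had many reads of both kinds, with 1045 of Xist beside 1994 of Ddx3y, 816 of Eif2s3y and 558 of Kdm5d. The labels do not account for this. Depth, these sex-linked transcripts and treatment thus partly ran together. Depth class was fitted as a term among the alternatives at the end, and otherwise their parts in the results below were not tested.

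The labelled cell type, neural progenitor cells, was checked against markers. All 10 progenitor markers had reads, but their summed normalized counts, 1219 to 1608 in vehicle and 2087 to 2605 in Nrg-1β1, were small beside those of 10 oligodendrocyte markers (94731 to 191692 and 108744 to 141230) and 10 astrocyte markers (26571 to 38717 and 48336 to 48992). Markers of vessel cells were also present. The 15 endothelial markers summed to 2701, 1312 and 5682 normalized counts in vehicle libraries 1 to 3 and to 455, 368 and 611 in the Nrg-1β1 libraries. The values are therefore those of a mixture, in which fewer cells of a type and less RNA per cell cannot be told apart.

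Vehicle library 3 stood apart. It had the highest value of the 6 libraries for 42 of the 81 members, while it was highest for 15.5% of all genes. Vehicle library 1 was highest for 3 members and vehicle library 2 for 10, against 13, 11 and 2 in Nrg-1β1 libraries 1 to 3. Vehicle library 3 was also the library with the most endothelial, pericyte, fibroblast, choroid plexus and ependymal marker reads after scaling, as set out at the end. The class medians and the leading differences are given both with and without it.

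Matrix and integrin genes made up 0.349%, 0.590% and 0.586% of the reads of vehicle libraries 1 to 3 (95% exact Clopper-Pearson intervals 0.348 to 0.350, 0.575 to 0.604 and 0.584 to 0.589). In the Nrg-1β1 libraries they made up 0.864%, 0.538% and 0.691% (0.840 to 0.888, 0.521 to 0.556 and 0.677 to 0.705). The groups overlapped. Most of these reads came from Sparcl1, which took 58.2% to 75.8% of the member reads in vehicle and 70.6% to 82.8% in Nrg-1β1. Without Sparc and Sparcl1 the share was 0.0672%, 0.0879% and 0.199% in vehicle and 0.0843%, 0.0707% and 0.0526% in Nrg-1β1, so that vehicle library 3 was far above the others and Nrg-1β1 library 3 below them. As summed normalized counts, the scale of the comparison, these members gave 2968, 2920 and 5657 in vehicle and 2469, 2396 and 2121 in Nrg-1β1, without overlap. These intervals, and all read-based intervals below, cover counting error only.

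**Figure D1:**
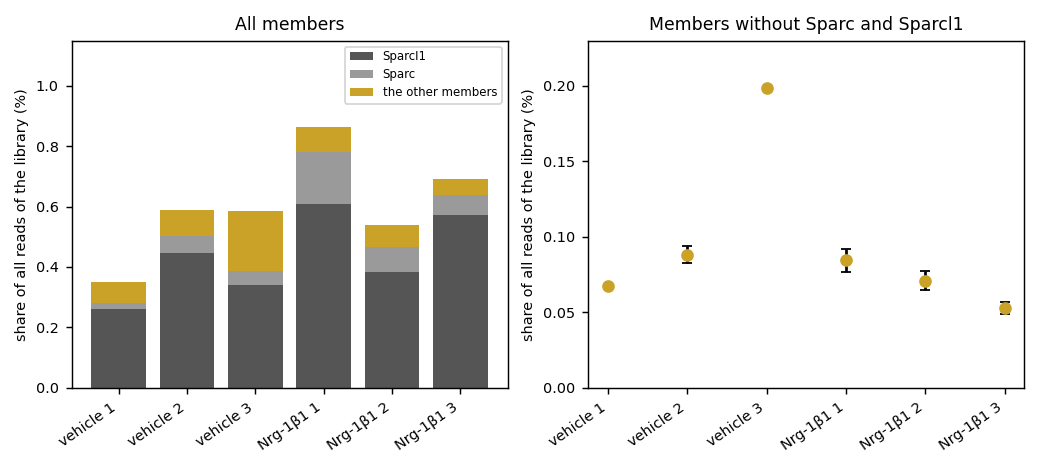
Share of all reads of each library (%) taken by the members. Left, stacked bars for Sparcl1, Sparc and the other members; right, the members without Sparc and Sparcl1, with 95% exact intervals, where vehicle library 3 stands at 0.199% and the other 5 libraries lie between 0.0526% and 0.0879%.

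Levels per kilobase of exon, the scale on which genes can be compared, followed the same order. The highest mean over the 6 libraries was that of Sparcl1, at 5108 normalized counts per kilobase, followed by Sparc at 639.9, the integrin gene Itgb5 at 160 and Itgb1 at 72.1. The laminin gene Lamb2 was next at 28.3, then Fn1 at 18.9, Itgav at 18.6 and Col8a2 at 17.8. Neighbours in this order were not all distinct. Sparcl1 ranged from 3307 to 7855 per kilobase and did not overlap Sparc, at 229 to 1312, whereas Itgb5 at 100 to 231 overlapped Itgb1 at 36.5 to 101. Lamb2, Fn1, Itgav and Col8a2 overlapped each other in range. The highest fibrillar collagen was Col11a2 at 10.5, and Col3a1 stood at 1.08.

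The comparison of Nrg-1β1 with vehicle asks how the transcripts of these cells differed with neuregulin treatment after prolonged loss of myelin. Of the 81 members, Fn1 and Col6a2 fell and 0 rose at an adjusted p of 0.05 (limma, adjusted over all 20323 genes). Over all genes 0.625% were called lower and 0.438% higher, and the 2 members called are 2.47% of the 81. At an unadjusted p under 0.05, 16 members (19.8%) were lower and 1 (1.23%) was higher, against 6.86% and 6.15% of all genes, and limma-voom on the recovered reads called 0 in either direction. Counts at that unadjusted level in the classes and lists below stand beside these same shares of all genes. The groups did not overlap for 16 members that were lower in Nrg-1β1 and 2 that were higher, against 10.4% and 7.37% of all genes. Of these 16, 6 were among the 30 members with at least 10 Nrg-1β1 reads and 10 among the 51 with fewer. The latter include Col28a1, Col6a6, Itga8 and Lamb3, which had no Nrg-1β1 read. Of the 16 members lower at an unadjusted p under 0.05, 8 were among the 30 and 8 among the 51. The part of depth in these counts was not tested. The median log2 difference, Nrg-1β1 minus vehicle, was -0.39 over the members and 0.03 over all genes, and 55 members (67.9%) had a negative difference, against 47.8% of all genes.

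The 2 calls and the median were not stable. The calls were lost when any of the 6 libraries was left out, and without vehicle library 3 the median over the members was -0.10, against -0.52 without vehicle library 1 or 2. With vehicle library 2 alone as the control, the vehicle library whose depth was like that of the Nrg-1β1 libraries, the median was -0.15. Without vehicle library 3, 45 of the 81 members had a negative difference, and the medians turned positive for fibrillar collagens (0.15), for fibronectin and matricellular genes (0.03) and for integrin α subunits (0.11). Over all single libraries left out, the class medians ranged from -1.02 to 0.15 for fibrillar collagens, from -1.23 to -0.50 for basement membrane collagens and from -0.86 to -0.21 for laminins, nidogens and perlecan. They ranged from -0.72 to -0.34 for beaded, network and anchoring collagens, from -0.57 to 0.11 for integrin α and from -0.48 to -0.12 for integrin β subunits.

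**Figure D2:**
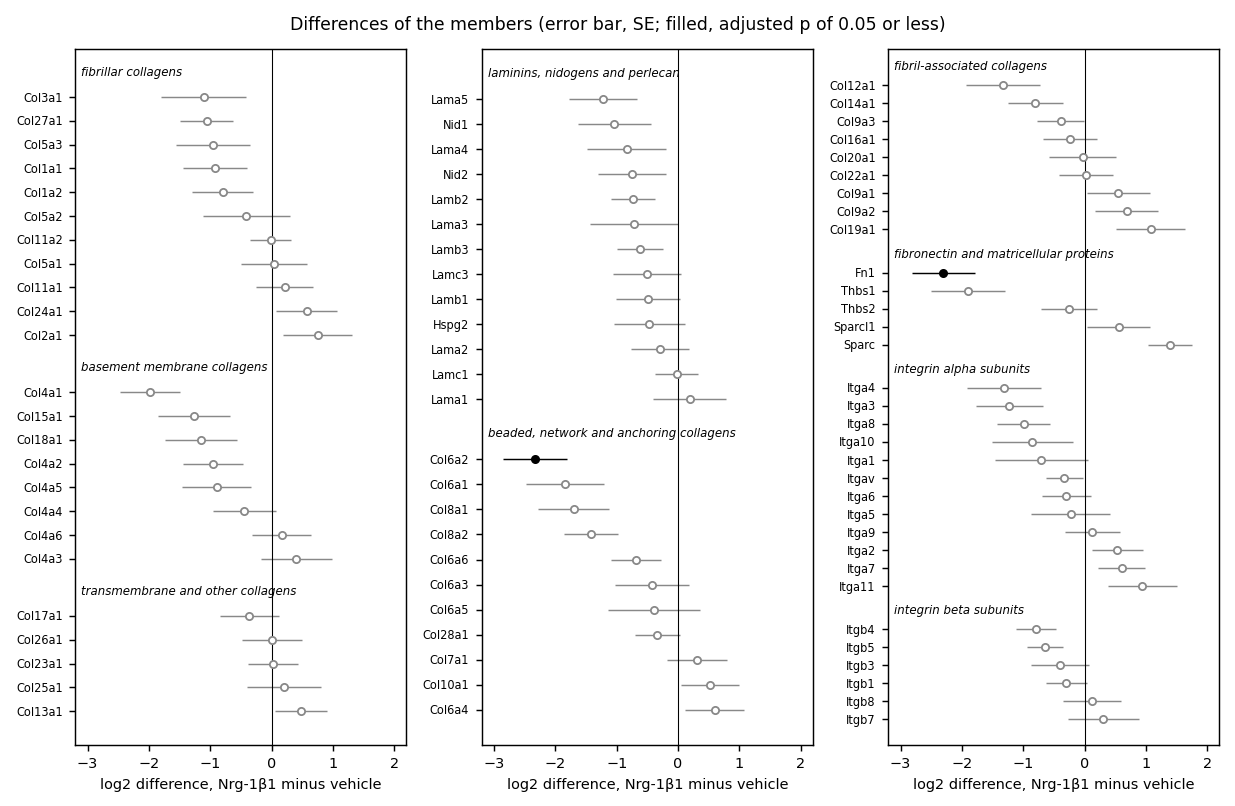
Log2 difference, Nrg-1β1 minus vehicle, for the members named or reported here, by structural class, each with its SE; filled points have an adjusted p of 0.05 or less (limma). Only Fn1 and Col6a2 are filled, at -2.30 and -2.34, and most laminin and basement membrane genes lie left of 0 with error bars that are wide for genes of few reads.

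Among the matricellular genes and fibronectin, Fn1 fell, while Sparc was higher without passing the test. Fn1 encodes fibronectin, the RGD-bearing glycoprotein that integrins assemble into fibrils. On the log2(normalized count + 4) scale, called log2 level from here on, Fn1 was at 7.31, 7.22 and 9.76 in vehicle libraries 1 to 3 and at 5.13, 6.24 and 6.02 in Nrg-1β1 libraries 1 to 3. All Nrg-1β1 values lay under the lowest vehicle value, by 0.98, and vehicle library 3 was far above the other two. The log2 difference was -2.30 ± 0.51 (SE, n = 3 each), a 4.94-fold lower level on this scale, with an adjusted p of 0.0348 (limma). The reads behind it were 2559, 47 and 14304 in vehicle and 6, 14 and 20 in Nrg-1β1. Without vehicle library 3 the difference was -1.47 ± 0.41 with an adjusted p of 0.370, and with vehicle library 2 alone it was -1.43 ± 0.58 with an adjusted p of 0.778 (limma, the lone library being assumed to vary like the others).

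Sparc, which encodes a collagen-binding matricellular protein, had log2 levels of 9.77, 10.83 and 10.38 under vehicle and 12.28, 11.50 and 11.39 under Nrg-1β1. The groups did not overlap, and every Nrg-1β1 library had at least 567 Sparc reads, so this is among the best measured members. The log2 difference was 1.40 ± 0.36 (SE, n = 3 each), with an adjusted p of 0.0621 (limma), which missed the threshold. It passed in 2 of 17 other settings, with the replicate number as a block and when libraries were centred on their medians (1.61, adjusted p = 0.0270, limma). That centring moved the median over all genes from 0.03 to 0.25. With any library left out Sparc did not pass, the lowest adjusted p being 0.167 (limma). Sparcl1 encodes the related protein hevin, an astrocyte product, and it had the most reads of any member. Its log2 levels were 13.50, 13.86 and 13.25 in vehicle and 14.13, 13.66 and 14.49 in Nrg-1β1, so the groups overlapped, and it differed by 0.56 ± 0.51 (SE), with an adjusted p of 0.709 (limma).

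The thrombospondin genes encode trimeric glycoproteins that bind calcium and many cell surface receptors. Thbs1 had log2 levels of 4.52, 4.99 and 5.27 in vehicle and of 2.00, 4.27 and 2.82 in Nrg-1β1, where 2.00 means that no read was counted. The groups did not overlap, but the Nrg-1β1 values rest on 0, 3 and 1 reads, and the difference of -1.90 ± 0.60 (SE) did not pass (adjusted p = 0.138, limma). Thbs2, at a difference of -0.26 ± 0.45, overlapped between the groups.

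**Figure D3:**
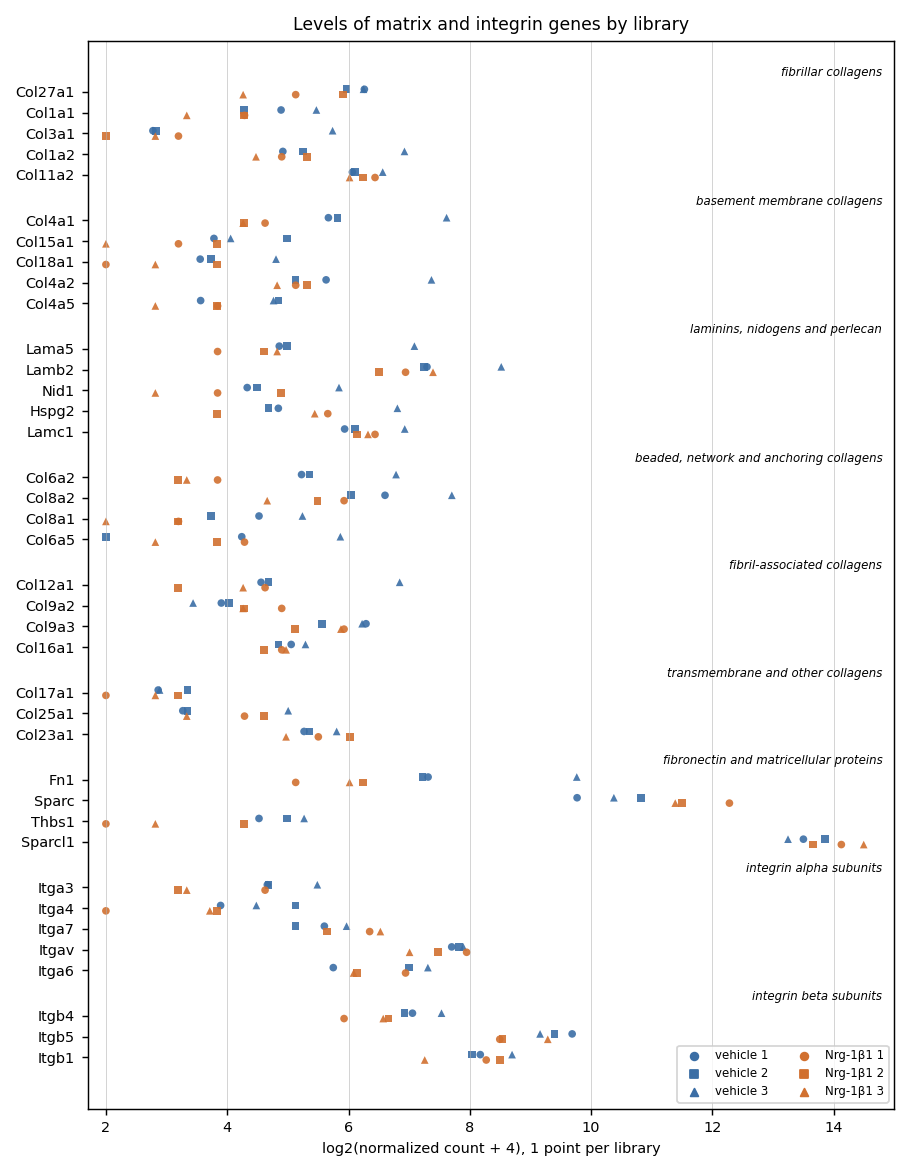
Log2(normalized count + 4) of the 38 members named by rule, 1 point per library, with vehicle in blue, Nrg-1β1 in orange and marker shapes for library numbers 1 to 3. Vehicle library 3 (blue triangle) lies furthest right in many collagen and laminin rows, Fn1 and Col6a2 separate by group, and Sparc is the row of high level in which Nrg-1β1 lies to the right of all vehicle libraries.

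Among the beaded and network collagens, Col6a2 was called lower in Nrg-1β1, and Col6a1, Col8a1 and Col8a2 had negative differences that did not pass. Collagen VI forms beaded microfilaments next to basement membranes from α1, α2 and α3 chains, and collagen VIII is a short-chain network collagen of vessel walls. Of 11 genes for beaded, network and anchoring collagens, Col6a2 fell, 0 rose and 10 did not pass, while 4 were lower at an unadjusted p under 0.05 (limma-voom called 0). Col6a2 had log2 levels of 5.23, 5.36 and 6.78 in vehicle and of 3.84, 3.19 and 3.33 in Nrg-1β1. The groups were 1.38 apart at their nearest, the widest gap of the 16 lower members whose groups did not overlap. The log2 difference was -2.34 ± 0.52 (SE, n = 3 each), with an adjusted p of 0.0363 (limma). Its Nrg-1β1 level rests on 2, 1 and 2 reads against 552, 12 and 1756 in vehicle, and the pooled level in vehicle was 9.99 times higher (95% counting interval 4.27 to 30.8). This ratio was 4.81 (2.05 to 14.9) without vehicle library 3 and 15.1 (6.44 to 46.5) without vehicle library 1. Pooling weights each library by its depth, so vehicle library 2 counts for little in these ratios. The ratio without vehicle library 3 is nearly that of vehicle library 1 alone, and the ratio without vehicle library 1 nearly that of vehicle library 3 alone.

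Without vehicle library 3 the Col6a2 difference was -1.84 ± 0.60 with an adjusted p of 0.453, and with vehicle library 2 alone it was -1.91 ± 0.50 with an adjusted p of 0.534 (limma). The partner chain gene Col6a1 had log2 levels of 4.14, 3.73 and 6.05 in vehicle and of 3.20, 3.19 and 2.00 in Nrg-1β1. It did not pass, at a difference of -1.85 ± 0.64 (SE, adjusted p = 0.184, limma), and had 2 reads in all in Nrg-1β1. Without vehicle library 3 it was -1.14. Col6a3, which encodes the α3 chain, overlapped between the groups at -0.43 ± 0.61. The other collagen VI genes, Col6a4, Col6a5 and Col6a6, ranged from -0.68 to 0.59 without passing.

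Col8a2 had log2 levels of 6.60, 6.04 and 7.70 in vehicle and 5.93, 5.49 and 4.66 in Nrg-1β1. Every Nrg-1β1 library was lower, although only by 0.11 at the nearest, and the difference was -1.42 ± 0.44 (SE, adjusted p = 0.126, limma). Col8a1 differed by -1.70 ± 0.58 with 2 reads in Nrg-1β1 (adjusted p = 0.178, limma). Col6a6 and Col28a1 had no read in any Nrg-1β1 library. Their pooled vehicle levels, 1.20 and 0.30 normalized counts, lay under the 4.18 that 3 reads over the Nrg-1β1 group would give, so a decrease was not detectable at this depth. Col7a1, the gene for the anchoring fibril collagen, and Col10a1 differed by 0.30 and 0.52.

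Basement membrane collagens were lower in Nrg-1β1 in 6 of 8 genes, with a median log2 difference of -0.92, or -0.50 without vehicle library 3, but 0 passed the test (limma; 2 were lower at an unadjusted p under 0.05, and limma-voom called 0). Col4a1 came closest. Its log2 levels were 5.67, 5.82 and 7.62 in vehicle and 4.62, 4.27 and 4.26 in Nrg-1β1, with no overlap between the groups. The difference was -1.98 ± 0.49 (SE, n = 3 each) with an adjusted p of 0.0535 (limma). It passed in 2 of 17 other settings, with the replicate number as a block and when libraries were centred on their medians (-1.77, adjusted p = 0.0347, limma). With any library left out Col4a1 did not pass, the lowest adjusted p being 0.0988 (limma). The pooled level in vehicle was 7.12 times that in Nrg-1β1, where 12 reads were counted (95% counting interval 4.07 to 13.8). It was 2.81 times (1.60 to 5.47) without vehicle library 3, which held 3180 of the 3971 vehicle reads, and 11.4 times (6.49 to 22.0) without vehicle library 1. As for Col6a2, vehicle library 2 counts for little in these ratios.

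Col4a2, whose start overlaps that of Col4a1 in the sequence shown above and whose chain joins the same trimer, had log2 levels of 5.63, 5.12 and 7.37 in vehicle and 5.13, 5.31 and 4.82 in Nrg-1β1. Here the groups overlapped, because vehicle library 2 lay within the Nrg-1β1 range, and the difference was -0.95 ± 0.49 (adjusted p = 0.434, limma). The difference between the responses of these genes was not tested. Without vehicle library 3 the Col4a1 difference was -1.36 and that of Col4a2 -0.29. Col15a1 and Col18a1, which encode collagens with heparan or chondroitin sulfate chains at vessel basement membranes, differed by -1.27 ± 0.59 and -1.15 ± 0.59 with 3 Nrg-1β1 reads each, the latter by -0.76 without vehicle library 3. Col4a3 to Col4a6, the genes of the other collagen IV trimers, ranged from -0.89 (Col4a5) to 0.40 (Col4a3) without passing.

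Laminins, nidogens and perlecan had a negative difference in 13 of 14 genes, with a median of -0.67, and in 10 of 14, with a median of -0.21, without vehicle library 3. Again 0 passed (limma; 1, Lama5, was lower at an unadjusted p under 0.05, and limma-voom called 0). Lamb2, which encodes the β2 chain of vascular laminins, is the best measured of them. Its log2 levels were 7.29, 7.25 and 8.52 in vehicle and 6.94, 6.51 and 7.39 in Nrg-1β1, and the groups overlapped. The difference was -0.74 ± 0.36 (SE, adjusted p = 0.398, limma), and -0.33 without vehicle library 3. Lama5, the gene of an α chain of endothelial laminin, had log2 levels of 4.86, 4.99 and 7.09 in vehicle and of 3.84, 4.61 and 4.82 in Nrg-1β1. Its groups were only 0.04 apart, and its difference was -1.22 ± 0.55 (adjusted p = 0.354, limma), or -0.50 without vehicle library 3.

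Lamc1, which encodes the γ1 chain found in most laminins, had nearly equal group means. Its log2 levels were 5.94, 6.10 and 6.93 in vehicle and 6.44, 6.14 and 6.32 in Nrg-1β1, a difference of -0.02 ± 0.35, or 0.28 without vehicle library 3. The nidogen genes Nid1 and Nid2, whose products link laminin to collagen IV, differed by -1.04 ± 0.60 and -0.75 ± 0.55, and by -0.56 and -0.40 without vehicle library 3. Hspg2, the gene of perlecan, had log2 levels of 4.84, 4.68 and 6.81 in vehicle and of 5.66, 3.83 and 5.44 in Nrg-1β1, and its difference of -0.47 ± 0.58 turned to 0.22 without vehicle library 3 and to 0.11 without Nrg-1β1 library 2. Lama1 to Lama4, Lamb1, Lamb3 and Lamc3 ranged from -0.84 (Lama4) to 0.19 (Lama1). Lamb3 had no read in Nrg-1β1 and a pooled vehicle level of 1.74, under the level that 3 reads would give there.

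Fibrillar collagens had few reads. Of 11 genes 0 passed (limma; 1, Col27a1, was lower at an unadjusted p under 0.05, and limma-voom called 0), and the median difference was -0.41. Col1a1 and Col1a2 encode the chains of collagen I, the main collagen of fibroblasts. Col1a1 had log2 levels of 4.89, 4.28 and 5.47 in vehicle and 4.29, 4.27 and 3.33 in Nrg-1β1, and Col1a2 had 4.92, 5.25 and 6.92 and then 4.90, 5.31 and 4.47. Both overlapped between the groups, with differences of -0.92 ± 0.52 and -0.80 ± 0.50, the latter -0.19 without vehicle library 3. Col3a1, the gene of the collagen that accompanies collagen I in vessel walls, was counted 47, 1 and 816 times under vehicle and 1, 0 and 1 times under Nrg-1β1. Its high value, a log2 level of 5.74, was in vehicle library 3 alone, against 2.78 and 2.83 in vehicle libraries 1 and 2.

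Col11a2 was the fibrillar collagen gene with the highest level, and its groups nearly coincided. Its log2 levels were 6.06, 6.10 and 6.56 in vehicle and 6.44, 6.24 and 6.02 in Nrg-1β1, a difference of -0.01 ± 0.34 (SE). Col27a1 had log2 levels of 6.26, 5.97 and 6.25 in vehicle and 5.13, 5.91 and 4.26 in Nrg-1β1, without overlap but only 0.06 apart at the nearest. Its difference was -1.06 ± 0.43 (adjusted p = 0.276, limma). The other fibrillar genes, of collagens II, V, XI and XXIV, ranged from -0.96 (Col5a3) to 0.75 (Col2a1) without passing.

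The fibril-associated and transmembrane collagens had differences of both signs. Fibril-associated collagens sit on the surface of fibrils, and of their 9 genes 5 had a negative difference, with a median of -0.03 and 0 past the test (limma; 1, Col12a1, was lower at an unadjusted p under 0.05, and limma-voom called 0). Col12a1 had log2 levels of 4.56, 4.68 and 6.84 in vehicle and of 4.62, 3.19 and 4.26 in Nrg-1β1, a difference of -1.34 ± 0.60 that was -0.59 without vehicle library 3. The collagen IX genes differed among themselves: Col9a2 was higher in each Nrg-1β1 library, at 4.90, 4.27 and 4.26 against 3.90, 4.03 and 3.44 in vehicle, while Col9a3 overlapped. Col9a2 differed by 0.69 ± 0.51 (adjusted p = 0.631, limma) on 13 Nrg-1β1 reads, and Col9a3 by -0.39 ± 0.38. Col14a1 had 196 reads in vehicle and none in Nrg-1β1, and was at least 1.41-fold lower there with 3 reads over the group as the floor, but 160 of those reads were in vehicle library 3. Without it the pooled vehicle level, 2.14 normalized counts, lay under the 4.18 of the floor, and leaving out Nrg-1β1 library 3 also removed the bound.

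Col16a1, at 5.05, 4.84 and 5.29 in vehicle and 4.90, 4.61 and 4.97 in Nrg-1β1, overlapped between groups (-0.24 ± 0.43). Col19a1, Col20a1, Col22a1 and Col9a1 ranged from -0.03 to 1.08 with 1 to 5 Nrg-1β1 reads each. In the transmembrane and other class, 1 of 5 genes, Col17a1, had a negative difference, 0 passed and 0 were under an unadjusted p of 0.05 in either direction (limma; limma-voom called 0). Col23a1 was the best measured, at 5.27, 5.36 and 5.80 in vehicle and 5.50, 6.03 and 4.97 in Nrg-1β1, with a difference of 0.02 ± 0.41. Col25a1, whose product is made by neurons, had log2 levels of 3.27, 3.35 and 5.01 in vehicle and of 4.29, 4.61 and 3.33 in Nrg-1β1 (0.20 ± 0.60, or 0.77 without vehicle library 3). Col13a1 and Col26a1 differed by 0.47 and 0.01 on 2 Nrg-1β1 reads each.

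Among the receptors, 0 of 18 integrin genes passed the test (limma; 5 were lower and 0 higher at an unadjusted p under 0.05, and limma-voom called 0), and the median difference was -0.31. Itgb1 encodes the β subunit shared by most collagen, laminin and fibronectin receptors. Its log2 levels were 8.17, 8.04 and 8.70 in vehicle and 8.27, 8.50 and 7.26 in Nrg-1β1, a difference of -0.29 ± 0.33 (SE) with overlap. Itgb5, whose product pairs with αv and binds vitronectin, was at 9.69, 9.40 and 9.16 in vehicle and 8.49, 8.54 and 9.29 in Nrg-1β1. Nrg-1β1 library 3 lay within the vehicle range, and the difference was -0.64 ± 0.30 (adjusted p = 0.369, limma).

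Itgb4, the gene of the β subunit that joins α6 to bind laminin, was at 7.05, 6.92 and 7.53 in vehicle and 5.93, 6.66 and 6.57 in Nrg-1β1. The groups did not overlap, and the difference was -0.78 ± 0.33 (adjusted p = 0.297, limma). A transcript on the opposite strand overlaps 7.66% of its exon length in GENCODE M21, and without a stated strand setting reads of both could not be told apart. The other β genes, Itgb3, Itgb7 and Itgb8, ranged from -0.39 to 0.31. Itgb8, whose product activates latent TGF-β with αv, was at 5.18, 6.99 and 7.05 in vehicle and 6.94, 7.04 and 5.63 in Nrg-1β1, so its lowest value was in vehicle library 1.

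Of the 12 α genes, 8 had a negative difference (5 without vehicle library 3) and 3 were lower at an unadjusted p under 0.05. These were Itga3, Itga4 and Itga8, with 7, 5 and 0 Nrg-1β1 reads. Itgav, the gene of αv, the partner in RGD receptors, was at 7.70, 7.82 and 7.89 in vehicle and 7.95, 7.47 and 7.01 in Nrg-1β1, with overlap and a difference of -0.33 ± 0.30. Itga6, for the laminin receptor subunit of neural stem cells and vessels, was at 5.75, 6.99 and 7.31 in vehicle and 6.94, 6.14 and 6.08 in Nrg-1β1 (-0.30 ± 0.40, or 0.02 without vehicle library 3). Itga7, also a laminin receptor gene, had a positive difference without passing, at 5.60, 5.12 and 5.97 in vehicle and 6.35, 5.64 and 6.53 in Nrg-1β1 (0.61 ± 0.38, adjusted p = 0.541, limma).

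Itga3 and Itga4 did not overlap between the groups, by 0.04 and 0.06, and differed by -1.23 ± 0.54 and -1.32 ± 0.60 on 7 and 5 Nrg-1β1 reads. Itga5, which encodes the fibronectin receptor subunit α5, was at 4.45, 2.83 and 5.12 in vehicle and 4.29, 4.61 and 2.82 in Nrg-1β1, a difference of -0.23 ± 0.65 with overlap, or 0.27 without vehicle library 3. Itga8, for another RGD receptor subunit, had 74 vehicle reads and none in Nrg-1β1, which the depth there cannot tell from an equal level. Itga1, Itga2, Itga9, Itga10 and Itga11 ranged from -0.85 (Itga10) to 0.94 (Itga11). For Itga10, 33.5% of the exon length overlaps another annotated gene on the same strand, so its reads are uncertain.

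Other genes that make, cut or bind the matrix were looked up from lists of their pathways, and in each of them 0 genes passed over the whole table (limma; limma-voom also called 0). Among 17 genes for collagen maturation, 3 (17.6%) were lower and 0 higher at an unadjusted p under 0.05. Over all genes these shares were 6.86% and 6.15%. The median difference of the 17 genes was -0.38. Pcolce, which encodes the enhancer of procollagen C-proteinase, and the prolyl hydroxylase gene P4ha2 differed by -1.64 ± 0.54 and -1.42 ± 0.57 (adjusted p = 0.160 and 0.276, limma). Among 18 matrix protease and inhibitor genes, 5 (27.8%) were lower and 0 higher at that level, with a median of -0.19. The protease gene Adamts1 differed by -1.58 ± 0.42 and Reck, a membrane inhibitor of metalloproteinases, by -2.11 ± 0.59 (adjusted p = 0.0707 and 0.0862, limma).

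The median difference was close to 0 for brain-type matrix genes and for integrin adaptors. Among 16 proteoglycan, tenascin and hyaluronan genes, 1 (6.25%) was lower and 2 (12.5%) were higher at an unadjusted p under 0.05, with a median of 0.01. Ncan, the gene of the astrocyte and neuron proteoglycan neurocan, differed by 0.90 ± 0.29 (adjusted p = 0.143, limma), and Hapln2, for a link protein at nodes of Ranvier, by -1.11 ± 0.38 (adjusted p = 0.178). Among 18 genes for integrin adaptors and kinases, 1 (5.56%) was lower and 3 (16.7%) were higher, with a median of -0.05. In both lists the share lower was near the 6.86% of all genes, and the share higher stands beside 6.15%. The kinase gene Src and the parvin gene Parvb differed by 0.92 ± 0.28 and 0.95 ± 0.31 (adjusted p = 0.112 and 0.148, limma).

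Markers of vessel-associated cells were also mostly lower in Nrg-1β1. Of 15 endothelial markers 10 fell and 0 rose, with a median log2 difference of -2.52, and all 15 were lower at an unadjusted p under 0.05, while limma-voom called 0. Of 12 pericyte and smooth muscle markers 1 fell, the vitronectin gene Vtn, with a median of -1.51, and their summed normalized counts were 311, 284 and 605 in vehicle and 114, 91.9 and 161 in Nrg-1β1, where Des and Kcnj8 had no read. Of 10 fibroblast markers 1 fell, Mgp, with a median of -1.08. One that went the other way, Pdgfra, was above vehicle in each Nrg-1β1 library, at 0.90 ± 0.37 (SE, adjusted p = 0.287, limma). The fibroblast marker sums were 599, 349 and 1062 in vehicle and 325, 378 and 182 in Nrg-1β1, so that vehicle library 2 lay within the Nrg-1β1 range.

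In vehicle library 3 the endothelial, pericyte, fibroblast, choroid plexus and ependymal sums were all at their highest. For choroid plexus markers the sum was 7512, against 5998 and 3081 in vehicle libraries 1 and 2, and for ependymal markers 751, against 589 and 127. Also highest there were the sums of the basement membrane collagens (434, against 123 and 157 in the other vehicle libraries) and of the laminins, nidogens and perlecan (1003, against 357 and 389). In Nrg-1β1 the sums were 77.5, 112 and 51.7 for these collagens, all under the vehicle values. For the laminin class they were 362, 301 and 389, which overlapped vehicle libraries 1 and 2. Of 12 microglia markers 8 fell and 0 rose, and of 9 choroid plexus markers 5 fell and 0 rose, the latter with Kcne2 at no read in Nrg-1β1. In these lists limma-voom called 0 and 1 lower. Of 6 ependymal markers 0 passed, all 6 had a negative difference and 4 were lower at an unadjusted p under 0.05 (limma, while limma-voom called 0). Astrocyte markers had positive differences in 10 of 10 genes and sums above vehicle in each Nrg-1β1 library. Of them 0 passed the test (limma, with 5 higher at an unadjusted p under 0.05, and limma-voom called 0). Oligodendrocyte progenitor sums, 1766 to 2954 in vehicle and 3452 to 4127 in Nrg-1β1, did not overlap either, nor did the neural progenitor sums. In these progenitor lists 7 of 9 and 7 of 10 differences were positive. Each had 1 gene called higher, C1ql1 and Sox1 (limma, while limma-voom called 0). The neural progenitor markers did not move together, with 3 higher and 2 lower at an unadjusted p under 0.05 (limma). The lower ones were Nes, at -1.65 ± 0.42 without overlap between the groups (adjusted p = 0.0582, limma), and Prom1, at -1.58 ± 0.58 with overlap. Neuron markers had positive differences in 9 of 10 genes, with sums that overlapped. Sparc, too, was above vehicle in each Nrg-1β1 library. The part of these cell types in the matrix and integrin values was not tested.

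**Figure D4:**
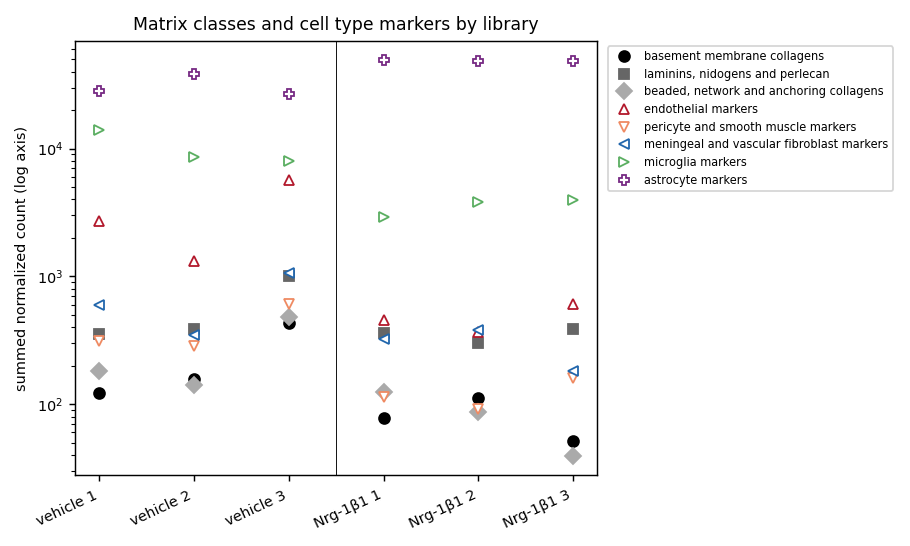
Summed normalized counts (log axis) of 3 matrix classes (filled symbols) and 5 cell type marker lists (open symbols) in each library, with vehicle left and Nrg-1β1 right of the line. Vehicle library 3 is highest for the 3 matrix classes and for the endothelial, pericyte and fibroblast markers, while astrocyte markers are highest in the Nrg-1β1 libraries. Choroid plexus and ependymal markers, not drawn, were also highest in vehicle library 3.

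The plot of differences with libraries left out shows how far the leading genes depend on single libraries. The Fn1 difference ranged from -2.74 to -1.47, that of Col6a2 from -2.62 to -1.84, that of Col4a1 from -2.33 to -1.36 and that of Sparc from 1.12 to 1.65 when 1 library at a time was left out. None of these 4 passed in any of the 6 reduced sets, where the lowest adjusted p-values were 0.0660, 0.105, 0.0988 and 0.167 (limma). The signs were the same throughout, which for groups that do not overlap is fixed by the choice of genes.

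**Figure D5:**
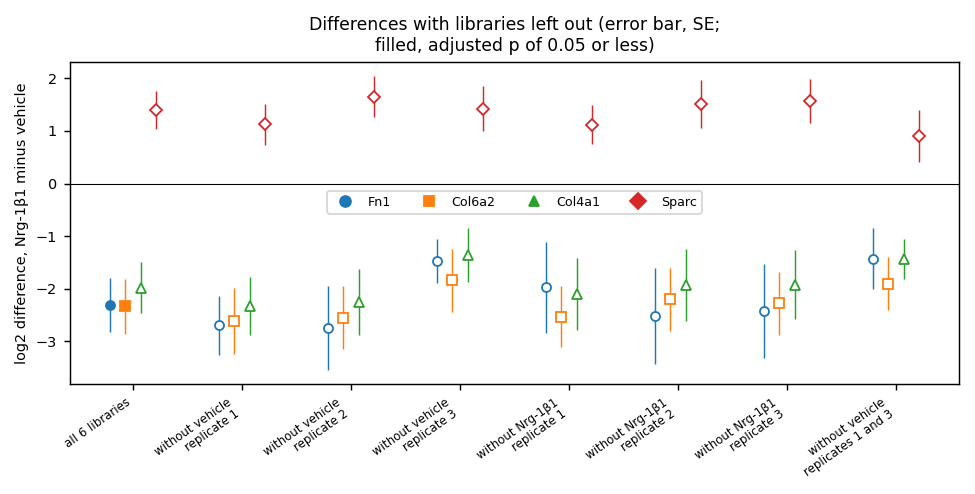
Log2 difference, Nrg-1β1 minus vehicle, with its SE for Fn1, Col6a2, Col4a1 and Sparc, with all 6 libraries, with each library left out and with vehicle library 2 alone as control; filled points have an adjusted p of 0.05 or less. Only Fn1 and Col6a2 with all 6 libraries are filled, and the decreases are smallest where vehicle library 3 is absent.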

How the data were processed

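Per the submitters' processing notes the reads passed through Trimmomatic and Bowtie2. The sources used here do not give versions, genome build, counter, strand setting or normalization. The values deposited by the authors are on a log2 scale, with a lowest value of 2 in each library, and 6779 of 27102 rows are blank in all libraries. After 4, the pseudocount, was taken from the unlogged values, 100% were whole multiples of 1 step per library within 0.02 of a read, so they were read as log2(normalized count + 4) and whole reads were recovered. This reading comes from the values.

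The comparison was limma 3.58.1 (R 4.3.3) with an intensity trend on the deposited log2 values, all 20323 genes, group as the only term and Benjamini-Hochberg adjustment at 0.05. It was tested on simulated counts with these library sizes, in which the changed genes were drawn from those whose mean normalized count reached 50. This says nothing of members with fewer. The simulation gave every gene the same dispersion and held no outlying library such as vehicle library 3, so it does not show how the test behaves with one. Class medians and pooled levels with libraries left out were added after the data were seen. Adding 4 understates differences of genes with few reads. Lengths, coding sequences and overlaps come from GENCODE M21, promoters and starts from RefSeq (GRCm38.p6). Pooled levels are reads over a group divided by its summed reads per normalized count, with 95% exact intervals, and floors are 3 reads over a group. A read equalled 0.0605, 3.09 and 0.0605 normalized counts in vehicle libraries 1 to 3, so pooled vehicle levels hold little of vehicle library 2.

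Members and lists were chosen with earlier results of these data known. Named genes were those called, the 3 with the highest mean and the 3 with the smallest p (mean normalized count of at least 10 in a group) per class, and a fixed set. Genes outside this rule, such as Col6a1, were chosen after their values were seen, to account for the members, and 1 member is not reported singly here. From the other lists, genes called or the 2 with the smallest p could be named. Alternatives were another pseudocount, a filter, scalings, a replicate block, no trend, limma-voom, depth as a term and left-out libraries. Nothing in the labels shows shared cages or batches. Each library was taken as a separate mouse, and whether vehicle library 3, with both Xist and Y-linked reads, held cells of 1 animal was not tested.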

Additional observations from a re-analysis of the deposited data

How the results depend on the processing

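With all libraries, Fn1 and Col6a2 were lower and 0 members higher. The number of lower members was 0, and of higher members 0, with a pseudocount of 1, among the 6731 genes whose mean normalized count reached 50 (18 members), with quantile normalization, without the intensity trend, with limma-voom (with or without that filter, the filtered run being added after the data were seen), with depth class as a term, and without vehicle libraries 1 and 3 or 1 and 2. Centring on library medians gave 3 lower, with Col4a1, and 1 higher, Sparc, and moved the median over all genes from 0.03 to 0.25; the members' median relative to all genes was -0.43 in both. The cause of these changes was not tested. Over all genes the counts lower and higher were 127 and 89 as deposited, 80 and 49 with a pseudocount of 1, 38 and 11 with the filter, 53 and 12 with quantile normalization, 164 and 335 with centring, 19 and 2 without the trend, 1 and 13 with limma-voom, 0 and 1 with limma-voom and the filter, and 0 and 0 with depth class as a term or with either pair of vehicle libraries left out. When each library was left out in turn, 0 members were lower in each case, and the genes lower ranged from 0 to 41 and those higher from 0 to 15.

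Depth class as a term and leaving out vehicle libraries 1 and 3 both set Nrg-1β1 against vehicle library 2, and both gave a members' median of -0.15. The members' median was -0.84 without vehicle libraries 1 and 2. The other settings moved it by less than the spread between replicates, 0.31, and with single libraries left out it ranged from -0.52 to -0.10. With the replicate number as a block, 4 members were lower (Fn1, Col6a2, Col4a1 and Col8a2) and 1 higher (Sparc), with 342 and 285 genes over the whole table. Same-numbered libraries did not deviate together (correlations over genes of -0.13, -0.00 and -0.18), and no vehicle library correlated best with its own number. Deviations from the mean of 3 libraries depend on each other, and their counting error differs with depth. These correlations therefore cannot show whether same-numbered libraries were paired or shared a batch. Of 38 named members, 28 kept the sign of their difference under all settings run on them. The 30 members with at least 10 Nrg-1β1 reads are those for which depth allows most; for the other 51 a missing call says little.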
